A study of Homo sapiens with 30 samples.

Results

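The 10 genes described here are the cyclins of the core cell cycle and 2 of the kinases they switch on: *CCND1*, *CCND2*, *CCND3*, *CCNE1*, *CCNE2*, *CCNA2*, *CCNB1*, *CCNB2*, *CDK1* and *CDK2*. They were chosen by name and found in the deposited count table through their Ensembl identifiers, 10 of the 39359 genes listed there. All 10 passed the filter on low counts and are among the 21335 genes tested.

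The measurement was RNA-seq of H1299 cells, a human lung carcinoma line that is p53-null, so that p53 came only from a transiently transfected vector with tetracycline-responsive promoters. Every group was sorted for GFP from the same vector and collected at 6 h or 24 h, with 3 libraries per group that the series' design text calls biological replicates. The pGFP control expressed GFP alone, p53 WT added wild type p53, p53 RW added the RW mutant p53, and p53 O6-meG added wild type p53 from a template that carried the DNA lesion O6-methylguanine. The p53 TM group received the same lesion-bearing vector together with 10 µM O6-benzylguanine (O6-bzG), which inactivates the repair protein AGT, so that transcription past the lesion can write mutant p53 mRNA (transcriptional mutagenesis, TM). No pGFP or WT library received O6-bzG, so the effect of the agent and that of TM cannot be told apart in any comparison of the TM group below.

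Libraries held between 32302699 and 71950532 counted reads, with a median of 44424643. For 2 libraries at 6 h, replicate 2 of the O6-meG and of the TM group, the title contradicts itself on whether O6-bzG was given. Both were left out of the comparisons, which rest on 28 libraries. The p53 target *CDKN1A* lay at 50.2 CPM (a gene's reads scaled to library size, after TMM normalization) in the library labelled O6-meG replicate 2, against 269 and 261 CPM in the other 2 of that group. In the library labelled TM replicate 2 it lay at 249.7 CPM, against 65.9 and 57.9 CPM. Both values therefore go against the labels used here, and the results at 6 h were also computed with both libraries under either grouping. Of the marker genes checked, *VIM* and *KRT18* of the H1299 line were abundant in every library, while *SFTPB*, *SFTPC* and *SCGB1A1* of normal lung, *PTPRC* of blood, *CDH5* of endothelium and *LUM* of fibroblasts had a median of 0 CPM.

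Cyclins rise and fall through the cell cycle and act by binding a cyclin-dependent kinase (CDK). D-type cyclins pair with CDK4 and CDK6 in G1, cyclins E1 and E2 bind CDK2 at entry into S phase, cyclin A2 binds CDK2 and then CDK1, and cyclins B1 and B2 bind CDK1 to drive mitosis. p53 is known to lower many of these transcripts through the CDK inhibitor p21, the product of *CDKN1A*, which leads to binding of the repressive DREAM complex at promoters with a cell cycle genes homology region (CHR) or E2F sites.

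Promoter sequences from RefSeq (GRCh38.p14, 250 bases before to 50 bases after each start) were at hand for *CCND3*, *CCNE1*, *CCNA2*, *CDK1*, *CCNB1* and *CCNB2*, in 9 windows. The windows were searched on both strands for the CHR spelled TTTGAA or TTCGAA, for CCAAT, which the gene's strand shows as ATTGG where it lies on the other, and for the E2F-like TTTNNCGC. Stretches from *CDK1* and the cyclins that bind its product are shown because all 4 genes were lower with wild type p53 at 24 h. They are given 5′ to 3′ on the strand of the gene, with matches, which do not overlap each other there, in capitals.
*CDK1*, chr10:60778161-60778190, plus strand, first start: tataataaaTTTGAActgtgCCAATgctgg
*CDK1*, chr10:60778448-60778477, plus strand, second start: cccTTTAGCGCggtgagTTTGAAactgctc
*CCNB2*, chr15:59105016-59105125, plus strand: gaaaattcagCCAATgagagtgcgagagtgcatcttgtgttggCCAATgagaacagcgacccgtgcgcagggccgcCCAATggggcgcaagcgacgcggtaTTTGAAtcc
*CCNB1*, chr5:69167050-69167134, plus strand: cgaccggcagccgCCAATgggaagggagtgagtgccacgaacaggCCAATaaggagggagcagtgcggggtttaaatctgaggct
*CCNA2*, chr4:121823884-121823963, minus strand: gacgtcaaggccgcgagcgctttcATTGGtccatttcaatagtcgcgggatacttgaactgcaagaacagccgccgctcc
The *CCNB2* stretch holds CCAAT at 120, 87 and 54 bases before the start, followed by a CHR that begins 29 bases before it. At the second start of *CDK1* an E2F-like match begins 27 bases and a CHR 13 bases upstream. A CHR in either spelling was present in 16.4% of all 35116 RefSeq promoter windows, CCAAT in 34.6% and the E2F-like motif in 6.89%. Of the genes with no stretch shown, *CCNE1* had 0 matches in its window, and the only matches of *CCND3* were CCAAT. Such matches describe the letters and do not show binding. Other spellings of these motifs were not searched, so lower case does not show that a motif is absent.

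The question of baseline is how much of each transcript H1299 cells held without p53. Per kilobase of exon, so that genes can be compared, *CCNB1* was the most abundant in pGFP cells at 6 h, at 173 ± 4.41 CPM per kb (SD, n = 3). It was followed by *CCND1* (76.3 ± 2.11), *CCNA2* (67.8 ± 0.83), *CCNB2* (58.8 ± 1.60), *CDK1* (46.9 ± 5.49), *CDK2* (40.5 ± 2.26), *CCNE2* (23.2 ± 0.76), *CCNE1* (16.0 ± 1.58) and *CCND3* (15.6 ± 0.79 CPM per kb). *CDK1* and *CDK2* overlapped in their ranges, as did *CCNE1* and *CCND3*, while the other neighbours in this order did not overlap. *CCND2* was near the floor of the assay, at 0.31 ± 0.02 CPM per kb, with 38 to 153 reads per library, and none of its vector comparisons passed the test.

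**Figure D1:**
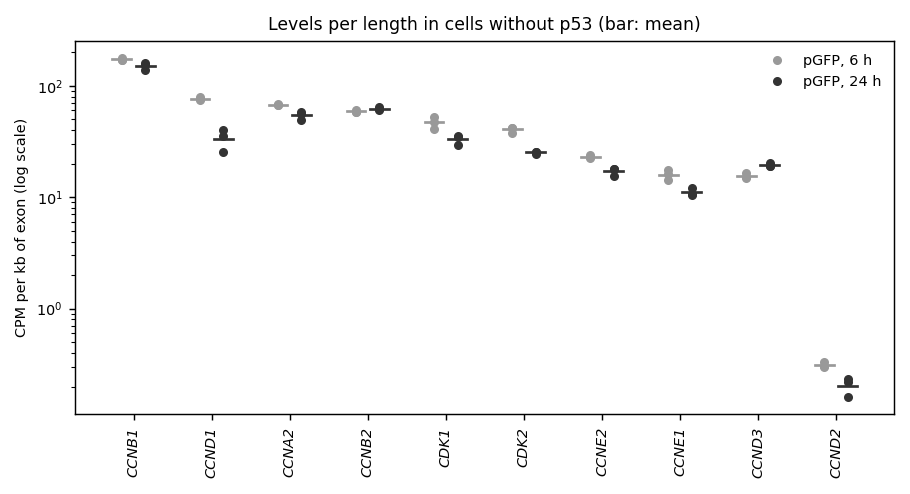
Level of each gene in pGFP libraries on a log axis in CPM per kb of exon, at 6 h (grey) and 24 h (black), with 1 point per library and a bar at the mean. *CCNB1* stands highest and *CCND2* lowest at both times, and *CCND1* drops from the second place to the fourth.

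The comparison of pGFP cells at 24 h with pGFP cells at 6 h shows what the genes did without p53. Of the 10 genes, 7 were lower and 1 was higher at 24 h by the quasi-likelihood test of edgeR (p adjusted by Benjamini and Hochberg), where 41.2% of all genes tested passed (22.3% lower and 19% higher). *CCND1*, the cyclin that links growth signals to G1, went from 361, 374 and 354 CPM to 122, 169 and 189 CPM. That is 44.1% of its 6 h level (log2 fold change −1.18, SE 0.15, adjusted p = 1.43e-06), the largest change of the 10 and the only one past 2-fold. *CDK2* stood at 62.3% (−0.68, SE 0.08, adjusted p = 4.90e-07), *CCNE1* at 69.3%, *CDK1* at 70.7%, *CCNE2* at 73.8%, *CCND2* at 65.0% and *CCNA2* at 80.2% of their 6 h levels. *CCND3* alone rose, by 0.31 on the log2 scale (SE 0.05, adjusted p = 5.14e-05). The 2 B-type cyclins did not pass, with log2 differences of −0.20 for *CCNB1* (95% interval −0.49 to 0.08) and 0.08 for *CCNB2* (−0.15 to 0.31). The fall of *CCNA2* is the least firm, with an adjusted p of 0.041 that misses the threshold in 4 of 7 alternatives (up to 0.106) and without any of 10 libraries (0.0511 to 0.166), which are pGFP 1 and 2 and WT 1 at 24 h and pGFP 1, 2 and 3, WT 1 and RW 1, 2 and 3 at 6 h. The call for *CCND2* was lost without pGFP replicate 1 at 24 h (0.101) or pGFP replicate 3 at 6 h (0.0553), and that for *CDK1* without pGFP replicate 3 at 24 h (0.0542) or replicate 1 at 6 h (0.0514).

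**Figure D2:**
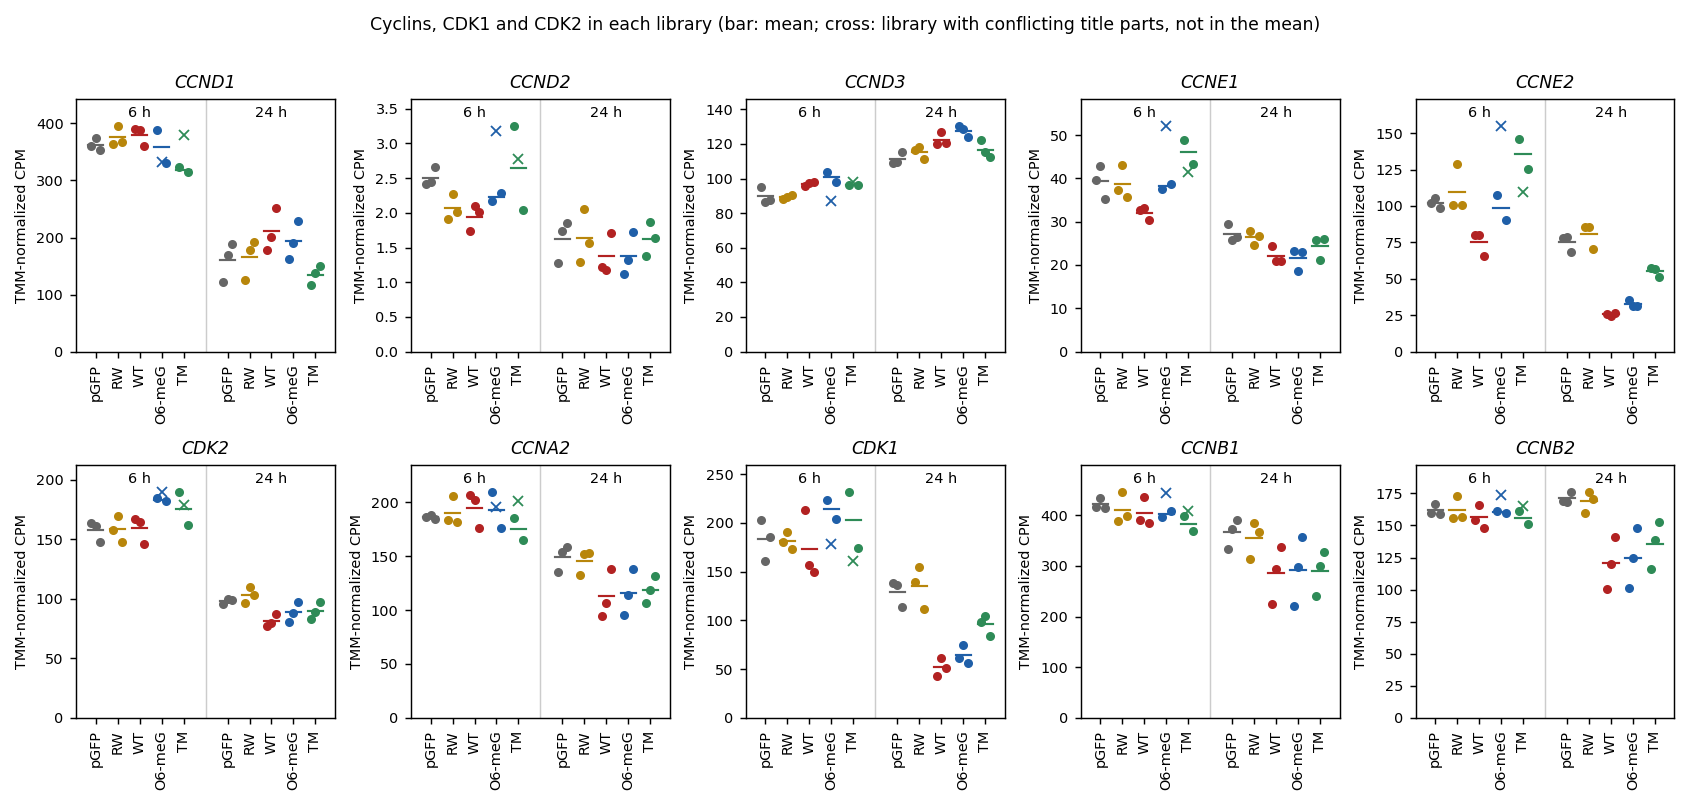
TMM-normalized CPM of each gene in every library, 6 h to the left and 24 h to the right of the grey line in each panel, with 1 point per library, a bar at the group mean and a cross for the 2 libraries with conflicting titles, which are not in the mean. At 24 h the WT points of *CCNE2* and *CDK1* lie below all pGFP, RW and TM points, and the TM points of both lie between those of WT and pGFP.

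Wild type p53 against pGFP at 24 h is the comparison that shows which of these genes p53 moved. *CCNE2* and *CDK1* fell to about 34.2% and 40.0% of their pGFP levels, another 5 of the 10 genes fell by less than 2-fold, and *CCND1* rose. Thus 8 of 10 passed (7 lower, 1 higher), where 35% of all genes tested passed, 14.5% lower and 20.5% higher. The median log2 fold change of the 10 was −0.33, beside 0.01 over all genes. At an unadjusted p under 0.05 it was 9 of 10, and 42.9% of all genes. Only *CCNE2* and *CDK1* fell at least 2-fold while passing, which 1.99% of all genes did. Every WT library lay below every pGFP library in 5 of the 10 genes, as in 19.7% of all genes. In 1 of the 10 every WT library lay above, as in 23.9% of all genes. In bulk RNA, fewer cells in the phase that makes a transcript and less transcript per cell cannot be told apart.

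Cyclin E2, encoded by *CCNE2* (chr8:94879770-94896678, minus strand), lay at 78.3, 78.8 and 68.3 CPM in pGFP libraries and at 26.0, 24.5 and 26.6 CPM in WT libraries. All 3 WT libraries were far below the lowest pGFP library, a log2 fold change of −1.55 (SE 0.11, adjusted p = 3.33e-11). *CCNE2* shares 1629 exon bases with *INTS8* on the opposite strand, and whether reads were counted by strand is not given in the sources used here. *INTS8* itself lay between 167 and 169.6 CPM in pGFP and between 168 and 184 CPM in WT libraries (log2 fold change 0.07, adjusted p = 0.352).

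*CCNE1* (chr19:29811991-29824312, plus strand), the other cyclin of S phase entry, changed much less than *CCNE2*, from 29.5, 25.7 and 26.4 CPM to 24.5, 20.8 and 21.0 CPM. The groups did not overlap, and the log2 fold change was −0.30 (SE 0.10, adjusted p = 0.0251). Their shared partner *CDK2* (chr12:55966781-55972789, plus strand) went from 95.6, 99.7 and 99.1 CPM to 77.1, 79.6 and 87.0 CPM, also without overlap (−0.27, SE 0.08, adjusted p = 0.0105). The call for *CCNE1* was lost without pGFP replicate 1 (adjusted p = 0.123) or without WT replicate 2 (0.0986) or 3 (0.0866). It was also lost with only the groups compared (0.0576) or all 30 libraries grouped by the genotype field (0.0515). That for *CDK2* held without any single library. With the replicate number as a block in edgeR, the adjusted p values were 3.00e-04 for *CCNE1* and 7.18e-05 for *CDK2*.

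*CDK1* (chr10:60778331-60794852, plus strand), the kinase of mitosis, lay at 138, 137 and 114 CPM in pGFP and at 43.2, 61.6 and 50.8 CPM in WT libraries. The groups were far apart, and the log2 fold change was −1.32 (SE 0.15, adjusted p = 1.45e-07). The cyclins that bind CDK1 fell with it, though to a smaller degree. *CCNB2* (chr15:59105126-59125045, plus strand) went from 169, 168 and 176 CPM to 101, 120.3 and 141 CPM, again without overlap (−0.50, SE 0.11, adjusted p = 8.68e-04). *CCNA2* (chr4:121816444-121823883, minus strand) went from 136, 154 and 158 CPM to 94.6, 107 and 138 CPM (−0.40, SE 0.12, adjusted p = 0.0131), and *CCNB1* (chr5:69167135-69178245, plus strand) from 334, 373 and 392 CPM to 224, 294 and 337 CPM (−0.36, SE 0.14, adjusted p = 0.0451). For both, the highest WT library lay above the lowest pGFP library.

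Libraries of the same replicate number at 24 h deviated together. Within each number *CCNA2* and *CCNB1* were lower in WT than in pGFP in 3 of 3 pairs, and with the replicate number as a block the adjusted p values were 5.45e-06 for *CCNA2* and 1.66e-05 for *CCNB1*. Without the block, *CCNA2* lost its call without WT replicate 1 (0.0610) or 2 (0.0555) or pGFP replicate 3 (0.0540). *CCNB1* lost it without any of 14 libraries, at most 0.189 without WT replicate 1, and with only the groups compared (0.0506). Those 14 were WT replicates 1 and 2, pGFP 2 and 3, O6-meG 2, TM 2 and RW 3 at 24 h, and pGFP 1, 2 and 3, O6-meG 1 and 3 and TM 1 and 3 at 6 h. *CCNA2* shares 254 exon bases with *EXOSC9* on the opposite strand, which was also lower with WT (log2 fold change −0.51, adjusted p = 1.48e-05).

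None of the D-type cyclins was called lower. *CCND1* (chr11:69641156-69654474, plus strand) lay at 122, 169 and 189 CPM in pGFP and at 178, 202 and 253 CPM in WT libraries, ranges that overlap. It was higher in WT in 3 of 3 pairs of the same number, with a log2 fold change of 0.40 (SE 0.15, adjusted p = 0.0440) that reached an adjusted p of 1.40e-06 with the replicate block. Without the block the call was lost in 4 of 8 alternatives and without any of 12 libraries, with adjusted p up to 0.272. Those were pGFP 1 and 2 and WT 2 and 3 at 24 h, and pGFP 1, WT 1 and 2, RW 1, 2 and 3 and TM 1 and 3 at 6 h. *LTO1*, on the opposite strand of *CCND1* with 497 shared exon bases and a median of 956 reads, was also higher (0.44, adjusted p = 0.0114).
*CCND3* (chr6:41934934-42050357, minus strand) lay at 109, 109.5 and 116 CPM in pGFP and at 119.7, 127 and 121 CPM in WT libraries, without overlap. Its log2 fold change was 0.14 (SE 0.05) with an adjusted p of 0.0515, which was 0.0197 with the replicate block, so that 9 of the 10 genes passed with the block (2 higher, 7 lower), beside 48.4% of all genes (26.7% higher, 21.6% lower). It also passed without TM replicate 1 (0.0478) or pGFP replicate 3 (0.0420) at 24 h or pGFP replicate 1 at 6 h (0.0462). *CCND2* (chr12:4269771-4305353, plus strand) lay at 1.18 to 1.71 CPM in WT against 1.28 to 1.86 CPM in pGFP (−0.25, 95% interval −0.69 to 0.19).

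**Figure D3:**
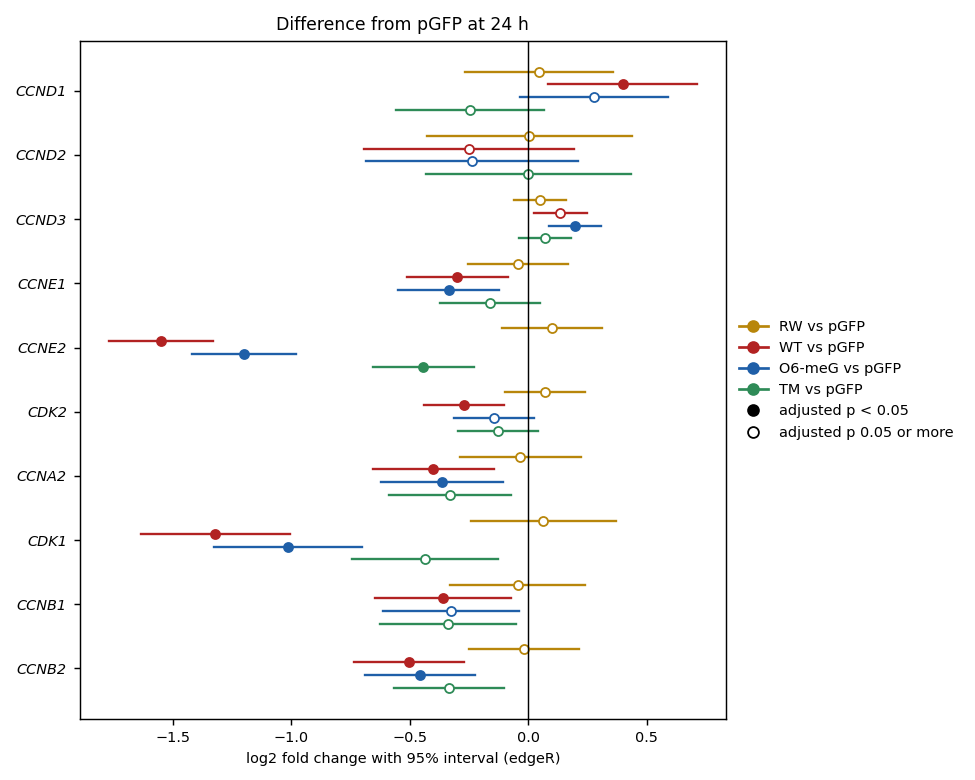
Log2 fold change against pGFP at 24 h with its 95% interval (edgeR) for RW, WT, O6-meG and TM, with filled points where the adjusted p is under 0.05. *CCNE2* and *CDK1* lie far to the left for WT and O6-meG, all RW intervals include 0, and *CCND1* has opposite signs for WT and TM.

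RW mutant p53 served as the control that makes p53 protein with altered function. None of the 10 genes passed against pGFP at 24 h or at 6 h by edgeR, and none had an unadjusted p under 0.05 at either time or an adjusted p under 0.05 by DESeq2, where 0.00469% of all genes tested passed at each time and 0.975% (24 h) and 1.02% (6 h) had an unadjusted p under 0.05. *CCNE2* lay at 85.3, 85.5 and 70.7 CPM and *CDK1* at 139.8, 155 and 112 CPM in RW libraries at 24 h, ranges that overlap those of pGFP.

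The p53 O6-meG vector, with AGT active, gave a response close in size to that of WT. At 24 h 6 of 10 genes passed against pGFP (5 lower, 1 higher), where 29.5% of all genes passed, 11.3% lower and 18.1% higher, and *CCNE2* and *CDK1* fell at least 2-fold, as did 1.8% of all genes. *CCNE2* lay at 35.3, 31.6 and 31.3 CPM, 43.6% of pGFP (log2 fold change −1.20, SE 0.11, adjusted p = 2.29e-09), and *CDK1* at 61.3, 74.8 and 56.3 CPM, 49.5% of pGFP (−1.01, SE 0.15, adjusted p = 8.76e-06). *CCNB2* (−0.46, adjusted p = 0.00271), *CCNA2* (−0.36, 0.0282) and *CCNE1* (−0.34, 0.0152) were lower and *CCND3* was higher (0.20, 0.00592), a call lost with every gene with a count in the fit (0.398) or with only the groups compared (0.0959). The call for *CCNA2* was lost without O6-meG replicate 1 (0.172) or 2 (0.0756) or pGFP replicate 2 (0.0792) or 3 (0.0970). That for *CCNE1* was lost without pGFP replicate 1 (0.0857) or O6-meG replicate 2 (0.123) or with only the groups compared (0.0540). The replicate block in edgeR gave adjusted p values of 2.665e-05 for *CCNA2*, 1.01e-04 for *CCNE1* and 0.00127 for *CCND3*. With the replicate block *CCNB1* (−0.35, adjusted p = 6.32e-05), *CDK2* (−0.15, 0.0216) and *CCND1* (0.28, 2.19e-04) passed as well, 9 of 10 in all (2 higher, 7 lower), beside 42.8% of all genes with the block (24.4% higher, 18.4% lower). *CCNB1* passed without the block too where WT replicate 1 (0.0274) or O6-meG replicate 3 (0.0106) was left out.
Set directly against WT, no gene of the 10 passed by edgeR, 1 had an unadjusted p under 0.05, and none passed by DESeq2, where 0.00937% of all genes passed and 4.96% had an unadjusted p under 0.05. All 3 O6-meG libraries were nonetheless higher in *CCNE2* than all 3 WT libraries, which was so for 3.76% of all genes. The difference was 0.35 on the log2 scale (95% interval 0.13 to 0.57) with an adjusted p of 0.657 and of 0.0281 with the replicate block, which called 0.534% of all genes, 0.0984% higher and 0.436% lower. For *CDK1* it was 0.31 (95% interval 0.00 to 0.62).

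The comparison of TM with WT asks what mutagenic transcription past the lesion did to the response. At 24 h *CCNE2* and *CDK1* were higher in TM than in WT cells and *CCND1* was lower, 3 of 10 genes, where 21.2% of all genes passed, 9.29% higher and 11.9% lower. The same number had an unadjusted p under 0.05, as had 31.9% of all genes. *CCNE2* and *CDK1* were among the genes that the study singled out on these same libraries, so their difference is not independent evidence of it.
*CCNE2* lay at 57.7, 56.8 and 51.4 CPM in TM libraries, above every WT library (as in 14.9% of all genes) and below every pGFP library (8.06%). The difference from WT was 2.15-fold (log2 1.11, SE 0.11, adjusted p = 2.67e-07) and that from O6-meG 1.69-fold (0.76, SE 0.11, adjusted p = 9.88e-05). *CDK1* lay at 98.4, 105 and 84.1 CPM, likewise between the other groups without overlap, 1.85-fold above WT (0.89, SE 0.15, adjusted p = 1.72e-04) and 1.49-fold above O6-meG (0.58, SE 0.15, adjusted p = 0.0145). Both differences from WT passed without any single library and in 8 of 8 alternatives. That of *CDK1* from O6-meG was lost without O6-meG replicate 1 (0.0539) or 3 (0.0654) or TM replicate 2 (0.0791) or with only the groups compared (0.0646). With the replicate block in edgeR its adjusted p was 4.31e-05.

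Expressed as a share of the mean WT change on the log2 scale, the 3 TM libraries kept 24.4%, 25.9% and 35.2% of the fall of *CCNE2*, and 29.3%, 22.4% and 46.5% of that of *CDK1*. The O6-meG libraries kept 70.3%, 80.6% and 81.4% for *CCNE2* and 80.8%, 59.2% and 89.8% for *CDK1*. The 2 groups did not overlap for either gene. For the mitotic cyclins they did overlap: TM libraries kept 32.04% to 109% of the WT change of *CCNB2*, 43.98% to 117% of that of *CCNA2* and 41.5% to 160% of that of *CCNB1*, beside 39.7% to 147%, 25.2% to 153% and 9.07% to 191% in O6-meG libraries. These shares, and their overlap, rest on group means and not on pairs of the same number, and are given with no test. Those of genes with a small WT change spread widely. Within pairs of the same number, *CCNB2* was higher in TM than in O6-meG in 3 of 3, by 0.19, 0.15 and 0.04 on the log2 scale. *CCNA2* and *CCNB1* were higher in TM in 2 of 3 pairs.

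*CCNB1* and *CCNA2* thus differed little between TM and WT, with log2 differences of 0.02 (95% interval −0.26 to 0.31) and 0.07 (−0.19 to 0.33). For *CCNB2* the difference was 0.17 (adjusted p = 0.323) and for *CDK2* 0.14 (0.240), which became 0.0444 and 0.0316 with the replicate block. With it 5 of 10 genes passed, 4 higher and 1 lower, beside 37% of all genes, 16.8% higher and 20.2% lower. Against O6-meG at 24 h 3 of 10 genes passed, 2 higher and 1 lower, where 10% of all genes passed (3.47% higher, 6.58% lower, and 1.75% lower by at least 2-fold). At an unadjusted p under 0.05 it was 4, and 23.3% of all genes. With the block it was 5, beside 25.3% of all genes (10.1% higher, 15.1% lower), and the genes added were *CCNE1* (0.18, adjusted p = 0.0470) and *CCND3* (−0.13, 0.0444).

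*CCND1* did not take a place between pGFP and WT. TM libraries held 117, 138 and 149.7 CPM. They lay below every WT library (178 to 253 CPM, as in 14.8% of all genes) and below every O6-meG library (162 to 229 CPM, as in 11.2%). The log2 difference was −0.64 from WT (SE 0.15, adjusted p = 0.00336), held without any single library, and −0.52 from O6-meG (SE 0.15, adjusted p = 0.0281). The latter was lost without TM replicate 1 (0.0996) or 2 (0.0748) or O6-meG replicate 2 (0.0629) or 3 (0.147) or with only the groups compared (0.103). With the replicate block in edgeR the adjusted p was 5.59e-09 against WT and 4.99e-07 against O6-meG. Against either, TM was lower in 3 of 3 pairs of the same number. TM was also lower than pGFP in 3 of 3 pairs of the same number, by 0.25 on the log2 scale (SE 0.15, adjusted p = 0.394), which was 0.00382 with the replicate block.

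**Figure D4:**
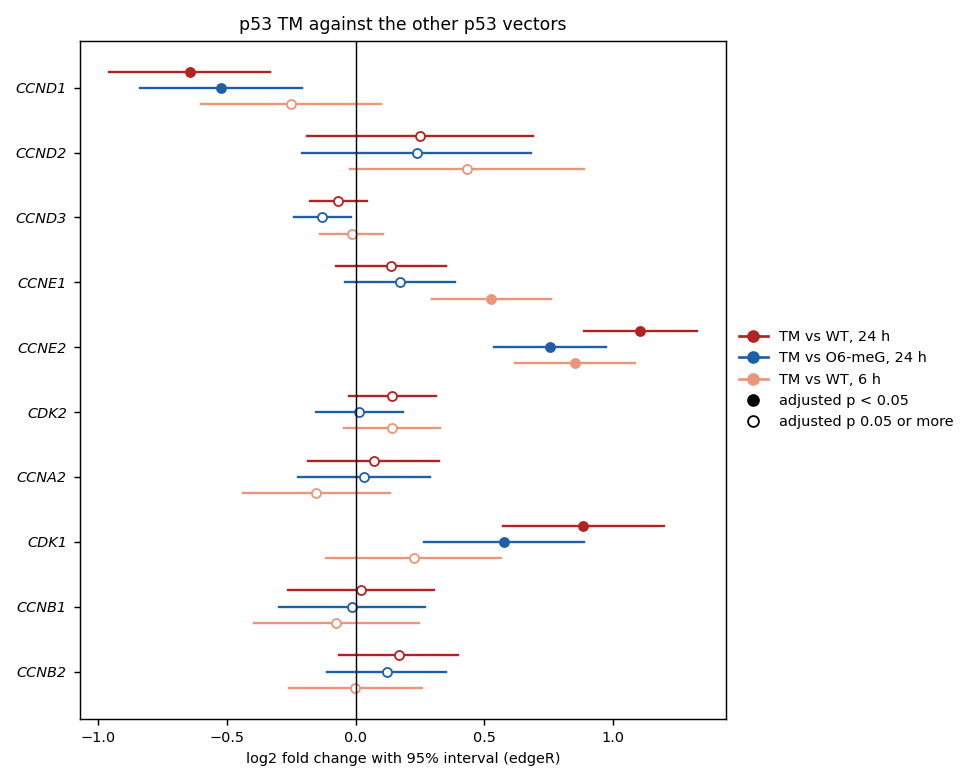
Log2 fold change of p53 TM against WT and against O6-meG at 24 h and against WT at 6 h, each with its 95% interval (edgeR) and filled where the adjusted p is under 0.05. Filled points to the right of 0 are those of *CCNE2* in all 3 comparisons, of *CDK1* at 24 h and of *CCNE1* at 6 h. Filled points to the left of 0 are those of *CCND1* at 24 h.

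TM against pGFP at 24 h shows what was left of the response. A single gene of the 10 passed, *CCNE2* at 73.6% of pGFP (log2 fold change −0.44, SE 0.10, adjusted p = 0.00469), where 10.7% of all genes passed, 1.68% lower and 9% higher. At an unadjusted p under 0.05 it was 5, and 21.3% of all genes. With the replicate block 21.7% of all genes passed, 6.64% lower and 15% higher, and 6 of the 10 did, all lower: *CCNE2*, *CDK1* (−0.44, adjusted p = 7.18e-04), *CCNB1* (−0.35, 1.50e-04), *CCNA2* (−0.33, 2.91e-04), *CCNB2* (−0.35, 2.91e-04) and *CCND1*. Without the block *CDK1* had an adjusted p of 0.0651 and *CCNB2* of 0.0572, and each passed in 6 of 8 alternatives. *CDK1* also passed without WT replicate 1 at 24 h (0.0354) or at 6 h (0.0290), and *CCNB2* without WT 1 (0.0262) or 3 (0.0356), O6-meG 1 (0.0244) or 3 (0.0301) or TM 3 (0.0220) at 24 h. *CCNE2*, *CCNA2*, *CDK1*, *CCNB1* and *CCNB2* had every TM library below every pGFP library, 5 of 10 genes, as had 8.06% of all genes.

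At 6 h WT p53 had moved 1 of the 10 genes, where 10.3% of all genes passed, 1.59% lower (0.0937% by at least 2-fold) and 8.68% higher. *CCNE2* lay at 80.1, 79.8 and 65.5 CPM against 102, 105 and 98.5 CPM in pGFP, without overlap, as in 11.5% of all genes (log2 fold change −0.44, SE 0.10, adjusted p = 0.00430). The call was lost without WT replicate 3 (0.0509). *CCNE1* lay at 32.7, 33.1 and 30.3 CPM against 39.7, 43.0 and 35.2 CPM, also without overlap, with a log2 fold change of −0.30 (SE 0.10) and an adjusted p of 0.0667, which passed in 4 of 8 alternatives (7.87e-04 to 0.136). It also passed without WT replicate 1 (0.0359) or O6-meG replicate 2 (0.0462) at 24 h, or RW replicate 2 (0.0364) or 3 (0.0431) or pGFP replicate 3 (0.0369) at 6 h. *CDK1* did not pass at this time (−0.08, 95% interval −0.39 to 0.23), and neither did the B-type cyclins.
The WT effect on *CCNE2* was larger at 24 h than at 6 h, by −1.11 on the log2 scale (SE 0.15, adjusted p = 1.11e-04), and that on *CDK1* by −1.24 (SE 0.21, adjusted p = 9.72e-04). These were 2 of the 10 genes, where 6.51% of all genes passed. *CCNB2* also passed with only the groups compared (0.0457) and without O6-meG replicate 1 (0.0459) or WT replicate 3 (0.0203) at 24 h, and *CCNA2* without the latter (0.0164). The effect on *CCNE1* differed by −0.00 between the times (95% interval −0.30 to 0.29).

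TM cells at 6 h held more of both E-type cyclin transcripts than WT cells. With 2 libraries in the TM group, *CCNE2* lay at 146 and 126 CPM and *CCNE1* at 48.9 and 43.4 CPM, above every WT library and above every pGFP library. Every TM library lay above every WT library in 15.6% of all genes, and above every pGFP library in 13.5%. RW replicate 2 held 129 CPM of *CCNE2*, above the lower TM library, and 43.0 CPM of *CCNE1*, below both TM libraries. Against WT, *CCNE2* was 1.81-fold higher (log2 0.85, SE 0.11, adjusted p = 6.77e-06) and *CCNE1* 1.44-fold higher (0.53, SE 0.11, adjusted p = 0.00195), 2 of 10 genes, where 10.9% of all genes passed, 2.77% higher and 8.14% lower. The call for *CCNE1* was lost without TM replicate 1 (0.0714), and with both conflicting libraries grouped by the genotype field (0.0692). Against O6-meG at 6 h *CCNE1* did not pass (0.27, adjusted p = 0.293) and *CCNE2* alone did (0.46, SE 0.13, adjusted p = 0.0370), where 4.1% of all genes passed, and it did not without TM replicate 1 (0.296) or 3 (0.0512) or O6-meG replicate 3 (0.430).
In the libraries with conflicting titles *CCNE2* lay at 155 CPM where the label is O6-meG and at 109.9 CPM where it is TM, and *CCNE1* at 52.1 and 41.5 CPM. The library labelled O6-meG was thus the highest of all 30 in both genes. With both libraries in the fit by the genotype field, the difference of *CCNE2* between TM and O6-meG was 0.11 (adjusted p = 1.00). By the first part of the titles it passed, as it did in 7 of 8 alternatives.

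Against pGFP at 6 h none of the 10 genes passed in TM cells by edgeR, 2 had an unadjusted p under 0.05 and none passed by DESeq2, where 0.202% of all genes passed and 5.98% had an unadjusted p under 0.05. *CCNE2* was higher by 0.41 (SE 0.11, adjusted p = 0.235), which passed in 3 of 8 alternatives (0.0327 with both conflicting libraries grouped by the first part of the title), and *CCNE1* by 0.23 (SE 0.11, adjusted p = 0.832). None passed in O6-meG cells at 6 h either (4.85% of all genes did, 4.32% higher), with 2 at an unadjusted p under 0.05 (17.1% of all genes) and none by DESeq2.
The direction for *CCNE2* in TM cells therefore differed between the times, higher than pGFP at 6 h in 2 of 2 libraries and lower at 24 h in 3 of 3. A test of this difference, added after the values were seen, gave −0.86 on the log2 scale (SE 0.15, adjusted p = 0.00141), 1 of 10 genes where 3.1% of all genes passed. It passed in 7 of 8 alternatives and without any single library. It did not pass with both conflicting libraries grouped by the genotype field (−0.76, adjusted p = 0.297).

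**Figure D5:**
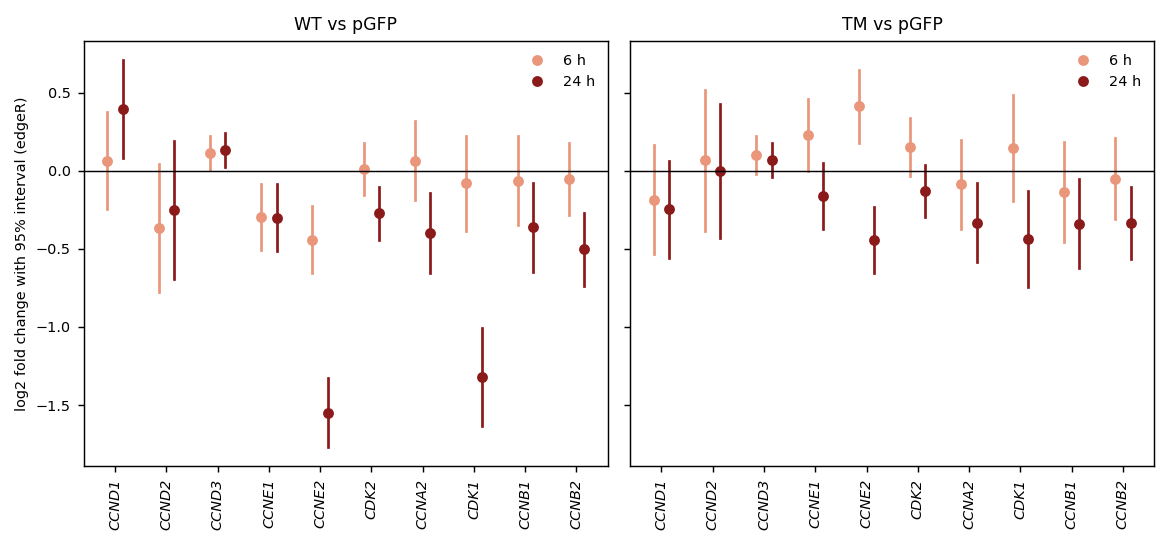
Log2 fold change against pGFP with its 95% interval (edgeR) for WT (left) and TM (right), at 6 h (light) and 24 h (dark). For WT *CCNE2* and *CDK1* drop between the times, while for TM *CCNE2* lies above 0 at 6 h and below 0 at 24 h.

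Lists of other genes of the same machinery place these values. They were chosen with earlier results of these data known, and counts over them are read beside the 35% of all genes that passed for WT against pGFP at 24 h and the 21.2% for TM against WT. Among 12 partners and regulators of the CDKs, 1 rose and 4 fell with WT. *WEE1*, the kinase that inhibits CDK1, rose 2.00-fold (log2 1.00, adjusted p = 1.44e-07), and of the 3 phosphatases that activate CDKs 2 fell, *CDC25C* by 0.82 and *CDC25A* by 0.74 on the log2 scale (adjusted p = 1.02e-05 and 1.47e-07), while *CDC25B* stood at −0.28 (0.133). *CCNH*, the cyclin of the CDK-activating kinase, fell by 0.27. *CDK4* did not pass, at −0.00 (SE 0.11). In TM cells, *WEE1* was lower than in WT (−0.79) and *CDC25C* (0.60) and *CDC25A* (0.42) were higher, and all 3 passed.

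Among 7 CDK inhibitors 1 rose and 1 fell. *CDKN1A* rose 12.8-fold with WT (log2 3.68, SE 0.17, adjusted p = 5.43e-14) and was lower in TM than in WT (−0.77, adjusted p = 7.36e-04), and *CDKN2C*, an inhibitor of CDK4 and CDK6, fell by 0.65. Among 15 genes of cyclin destruction 2 rose and 5 fell. *FBXW7*, which marks cyclin E for degradation, rose 1.86-fold (0.90, adjusted p = 2.38e-06) and *ANAPC2*, a subunit of the anaphase-promoting complex, rose by 0.27. The inhibitor of that complex *FBXO5* fell by 1.07, its ubiquitin-conjugating enzyme *UBE2C* by 0.76 and *SKP2* by 0.39. *FBXO5* was higher in TM than in WT (0.56, adjusted p = 4.43e-04).

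Among 15 other cyclins 4 rose and 5 fell with WT. *CCNA1*, a cyclin A of the germ line, rose 5.24-fold, from 10.7, 11.2 and 11.5 CPM to 68.9, 60.5 and 45.4 CPM (log2 2.39, adjusted p = 3.98e-11), and lay at 20.7, 15.02 and 12.7 CPM in TM cells (−1.86 against WT, adjusted p = 1.69e-07). *CCNK* rose by 1.117 and *CCNG1*, a known p53 target, by 0.64. *CCNG2* fell by 0.86, *CCNB3* by 0.81 and *CCNT2* by 0.35. Of 12 genes of the DREAM complex and its partners 2 rose and 3 fell, *LIN54* by 0.46 and *RBL2* by 0.27 upward, and *RBL1* by 0.70, *MYBL2* by 0.44 and *LIN52* by 0.38 downward. The medians of the lists were −0.23 for CDK partners, −0.12 for cyclin destruction, −0.11 for other cyclins, 0.07 for CDK inhibitors and −0.19 for DREAM, beside 0.01 over all genes.

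Likeness of profile was measured by Pearson's r of log2(CPM + 0.5) over the 28 libraries, which share their vectors, times and batches, so no p is given. Within the 10 genes *CCNE2* and *CDK1* were the most alike (r = 0.951), followed by *CCNA2* and *CCNB1* (0.942). *CCND3* ran against the rest, with r from −0.888 (*CCNE1*) to −0.573 (*CCNB2*). Over all genes tested the nearest to *CCNE2* were *ZNF257* (0.980) and *CENPQ* (0.977), to *CDK1* *C1orf112* (0.972) and *DNA2* (0.971), and to *CDK2* *DNAJC9* (0.994) and *EXO1* (0.990). *CCNA2* was nearest to *RCC2* (0.980) and *BUB1B* (0.979), *CCNB1* to *ECT2* (0.961) and *KNSTRN* (0.960), and *CCNB2* to *PRC1* (0.968) and *SPDL1* (0.964). For the G1 cyclins these were *DKC1* (0.990) and *RCC1* (0.985) for *CCND1*, *DNASE2* (0.959) and *SRC* (0.958) for *CCND3*, *EDRF1* (0.964) and *TOP3A* (0.947) for *CCNE1*, and *RNF4* (0.904) and *HNRNPLL* (0.903) for *CCND2*.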

How the data were processed

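RNA-seq libraries (ribosomal RNA depleted) were measured in 30 samples of H1299 cells. The deposited values used are raw read counts per gene, made by the authors with STAR 2.5.3a on hg38 and featureCounts of Subread 1.5.2 on GENCODE version 27. Whether counting used strand is not given in the sources used here, and a deposited normalized table was not used.

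Symbols, coordinates and exon lengths came from GENCODE version 44, which matched 38904 of 39359 genes. The counts went into edgeR 4.0.16 under R 4.3.3 (filterByExpr, TMM, quasi-likelihood test, all groups in 1 fit, no block), with Benjamini-Hochberg adjustment across the 21335 genes tested. A gene passed at an adjusted p under 0.05, and a DEG changed at least 2-fold as well. SEs and 95% intervals were derived from each fold change and its F value, and levels are TMM-scaled CPM. The 10 genes, the lists and the tests were chosen with earlier results of these data known, among them that 2 libraries at 6 h lie against their labels. Those 2 were left out because the parts of their titles conflict. From each list up to 3 genes per direction were named, by size of their change among those that passed for WT at 24 h, and for each of the 10 genes the 2 nearest profiles. Others named were chosen after their values were seen (*CDK4*, the overlapping genes).

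Replicate numbers pair the 24 h libraries: residuals of same-numbered libraries correlated above 0.1 in 30 of 30 pairs (0.427 to 0.885, different numbers at a median of −0.454). At 6 h this held in 8 of 9 pairs (lowest 0.095, median 0.483, different numbers at a median of −0.241). As not every pair reached 0.1, these were not treated as paired, though same numbers mostly deviated together at 6 h as well. Because residuals were centred within each group, negative values for different numbers partly follow from positive ones for the same number. Within groups, 30 pairs of libraries differed beyond sampling noise (chi-square per degree of freedom 5.51 to 41.9). Alternatives were DESeq2's size factors, DESeq2 1.42.0, every gene with a count, at least 10 counts in every library, only the groups compared, the replicate block, both groupings of all 30 libraries, and each library left out.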

Additional observations from a re-analysis of the deposited data

Results flagged for a closer look

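The effect of wild type p53 on *CCNE2* and on *CDK1* differed between 6 h and 24 h in a test of the difference itself. For *CCNE2* the log2 fold change against pGFP was −0.44 at 6 h and −1.55 at 24 h, a difference of −1.11 (edgeR, adjusted p = 1.11e-04), and for *CDK1* it was −0.08 and −1.32, a difference of −1.24 (adjusted p = 9.72e-04). Every WT library was below every pGFP library in *CCNE2* at both times and in *CDK1* at 24 h. This was so for 11.5% of all genes at 6 h and 19.7% at 24 h. The effect of p53 TM on *CCNE2* also differed, 0.41 at 6 h and −0.44 at 24 h, a difference of −0.86 (adjusted p = 0.00141) in a comparison added after the values were seen. The TM group at 6 h holds 2 libraries there, and the 6 h value did not pass (edgeR, adjusted p = 0.235). With both conflicting libraries grouped by the genotype field the difference did not pass either (−0.76, edgeR, adjusted p = 0.297), while it passed in 7 of 8 alternatives. O6-bzG was given to the TM group alone. The part of the agent in this difference cannot be told apart from that of TM.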

How the results depend on the processing

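The count of the 10 genes that passed stayed within 1.5 times its value, other than as follows. For WT against pGFP at 24 h (8 genes) it was 5 with only the groups compared and 4 to 9 with 1 library left out. For TM against pGFP at 24 h (1 gene) it was 4 with DESeq2's size factors or by DESeq2, 3 with every gene or with at least 10 counts, 2 with only the groups compared or with titles grouped by their first part, 6 with the replicate block and 1 to 3 with 1 library left out. With the replicate block it was 5 for TM against WT at 24 h (3 genes, also 3 with each library left out), 5 for TM against O6-meG at 24 h (3 genes, and 1 with only the groups compared or 1 to 3 with a library left out), 1 for O6-meG against WT at 24 h, and 7 for the WT effect between times (2 genes, 2 to 4 with a library left out), where *CCND1*, *CDK2*, *CCNA2*, *CCNB1* and *CCNB2* were added. Of all 21335 genes these fits called 7888, 5391, 114 and 3897. At 6 h the block gave 2 for WT, 2 for O6-meG and 2 for TM against pGFP, 4 for TM against WT and 2 for TM against O6-meG, and 5 for the TM effect between times, beside 4017, 3679, 328, 4499, 2595 and 1919 of all genes. For WT against pGFP the gene added was *CCNE1* (edgeR, adjusted p = 7.87e-04). Those added for O6-meG against pGFP were *CCND3* (0.0396) and *CDK2* (0.00416), and for TM against pGFP *CCNE1* (0.0290) and *CCNE2* (7.51e-04). TM against WT gained *CCND1* (0.0134) and *CDK2* (0.0374), and TM against O6-meG gained *CCNE1* (0.0164). The TM effect between times gained *CCNE1*, *CDK2*, *CDK1* and *CCNB2*. WT against pGFP at 6 h (1 gene) was 2 with DESeq2's size factors, by DESeq2 or with only the groups compared, and 0 to 2 with a library left out. TM against pGFP at 6 h (0 genes) was 1 with only the groups compared or with grouping by the first part of the title. With grouping by the genotype field TM against WT at 6 h was 1, TM against O6-meG 0 and the TM effect between times 0, and with a library left out the first was 1 to 2 and the second 0 to 1. O6-meG against pGFP at 24 h gave 4 to 7 and pGFP between the times 6 to 8 with a library left out. The block was not fitted to pGFP between the times, since numbers are nested in time, and it changed no other call at 24 h than those named. *CCNE2* in O6-meG cells at 6 h (−0.04) changed sign to 0.0166 with the block, 0.207 by the genotype field and 0.0101 by the first part of the title, and spanned −0.166 to 0.0803 with a library left out. *CDK1* in WT cells at 6 h (−0.08) spanned −0.281 to 0.0141, the highest without WT replicate 3. *CCND2*, at 38 to 153 reads, has the least depth of the 10. The cause of these changes was not tested.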
